A study of Mus musculus with 26 samples.

Results

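The 10 genes described here belong to the contractile and actin-binding apparatus and were followed through RNA sequencing libraries of mouse motor neuron spheroids. They are Acta2, Tagln, Cnn1, Myl9, Tpm1, Tpm2, Flna, Vcl, Actn1 and Srf, the last being the gene of serum response factor (SRF), with which the other members are linked. They were taken by name with earlier results of these data known, so their directions are not independent evidence. Each symbol matched 1 row, giving 10 of the 56941 genes in the deposited tables. All 10 passed the filter on low counts.

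The spheroids were grown from HBG3, a line of mouse embryonic stem cells in which the HB9 (Mnx1) promoter, active in motor neurons, drives GFP, and its genotype is labelled heterozygous blastocysts. They were differentiated with retinoic acid and a Hedgehog pathway agonist, received ciliary and glial neurotrophic factors, and were moved onto a fibrin platform at about day 8. The series asks what exercising muscle does to motor neurons by movement and, apart from that, by what it secretes. In the mechanical arm, a magnetic silicone array was moved at 4 Hz for 30 min each day (actuated, n = 4) or was present and never moved (static, n = 4). In the biochemical arm, libraries are labelled high intensity (n = 6), low intensity (n = 6) or biochemical control (n = 6). The design text speaks of medium from optically stimulated and from unstimulated muscle under sample names that are not tied to the intensity labels, so the groups are named by intensity only. All 5 groups share the 1 cell line and the fibrin platform, no sort on GFP is mentioned, no batch or date is given, and no label says that replicates came from separate differentiations. The p-values therefore measure the spread between these libraries, which may be technical.

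SRF is a DNA-binding factor that recognises the CArG box. In many cell types it is partnered by the myocardin-related factors Mrtfa and Mrtfb, which monomeric actin holds in the cytoplasm and which enter the nucleus when actin polymerises, and alternatively by ternary complex factors such as Elk1. Its classical targets are genes of the actin cytoskeleton: smooth muscle alpha-actin (Acta2), the actin-associated proteins transgelin (Tagln) and calponin (Cnn1), myosin light chain (Myl9), tropomyosins, and the linkers filamin A (Flna), vinculin (Vcl) and alpha-actinin (Actn1). The contractile members are abundant in smooth muscle cells, pericytes and myofibroblasts, whereas neurons build most of their actin from Actb and Actg1. In neurons SRF itself is known for its part in neurite growth and in activity-dependent transcription.

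The CArG box is CC and GG with 6 bases between them that are all A or T, and it reads as the same pattern on both strands. It was searched for in RefSeq promoter windows (build GRCm38.p6) that run from 250 bases before to 50 bases after each gene's start. Windows were present for 9 members, and Tagln was not matched. The 3 members whose window held a CArG box are shown, 5′ to 3′ on the gene's strand and trimmed around the box, with the box in capitals.
Myl9, chr2:156775263-156775352, plus strand: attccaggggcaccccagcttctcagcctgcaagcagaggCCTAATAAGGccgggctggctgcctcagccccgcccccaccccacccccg
Vcl, chr14:20929148-20929220, plus strand: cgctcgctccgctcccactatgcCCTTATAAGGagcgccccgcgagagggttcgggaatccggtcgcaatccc
Srf, chr17:46556176-46556284, minus strand: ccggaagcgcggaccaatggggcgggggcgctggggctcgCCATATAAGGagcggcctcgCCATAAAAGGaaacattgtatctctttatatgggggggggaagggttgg

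The box began 161 bases before the start in Myl9 and 227 bases before it in Vcl. Srf carried 2 boxes, which began 82 and 62 bases before its start. Among all 32851 windows 535 (1.63%) held at least 1 box and 6 (0.0183%) held 2 or more. The windows of Acta2, Cnn1, Tpm1, Tpm2, Flna and Actn1 held no exact match, which says only that these letters are not in these windows. A match is a description of the sequence and not of binding. Of the members with the lowest p-values at high intensity against control below, Myl9 and Vcl had a box in this window and Flna and Actn1 had none. Srf, with 2 boxes, had the highest p-value of the members there (unadjusted p = 0.476, edgeR). At low intensity the members with the lowest p-values were Flna, Vcl, Actn1 and Tpm2, and of these only Vcl had a box.

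Depth was uneven. The results below rest on 21 libraries, here the deeper libraries, that each had 1000000 or more protein-coding counts: actuated 4, static 3, high intensity 4, low intensity 5 and control 5. Their totals were 7269276 to 13162635 counts on the arrays and 1551334 to 3971348 counts in the biochemical arm. The other 5 libraries held 1536 to 1457250 counts and enter only the alternative with all 26 libraries. This depth minimum was chosen with earlier results of these data known. The 3 counts that a count of 0 still allows correspond to at most 1.90 CPM (normalised counts scaled to a library of 1000000) in any deeper library, well below the levels of 8 members in all of them. Cnn1 reached down to 2.32 CPM and Myl9 to 4.21 CPM. The scaling used TMM, a trimmed mean of ratios between libraries.

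Per transcript length, Tpm1 was the most abundant member and Srf the least. Over the deeper libraries Tpm1 averaged 453 ± 232 TPM (transcripts scaled for length to a total of 1000000; SD, n = 21), followed by Acta2 at 127 ± 133 TPM. Tpm2 (81.8 ± 77.1 TPM), Tagln (74.1 ± 79.3 TPM) and Flna (68.8 ± 39.8 TPM) came next, then Actn1 (42.6 ± 30.1 TPM), Myl9 (34.8 ± 41.4 TPM), Vcl (31.1 ± 11.2 TPM), Cnn1 (25.7 ± 41.5 TPM) and Srf (7.86 ± 3.39 TPM). Only the step from Tpm1 to Acta2 was larger than the SD of the higher gene. This SD is the spread over libraries of all groups. Neighbours were not compared within each library, so whether the other steps hold there was not tested. The SD exceeded the mean for Acta2, Tagln, Myl9 and Cnn1, which makes these 4 contractile genes the least even members across libraries, and Vcl was the most even on this scale.

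**Figure D1:**
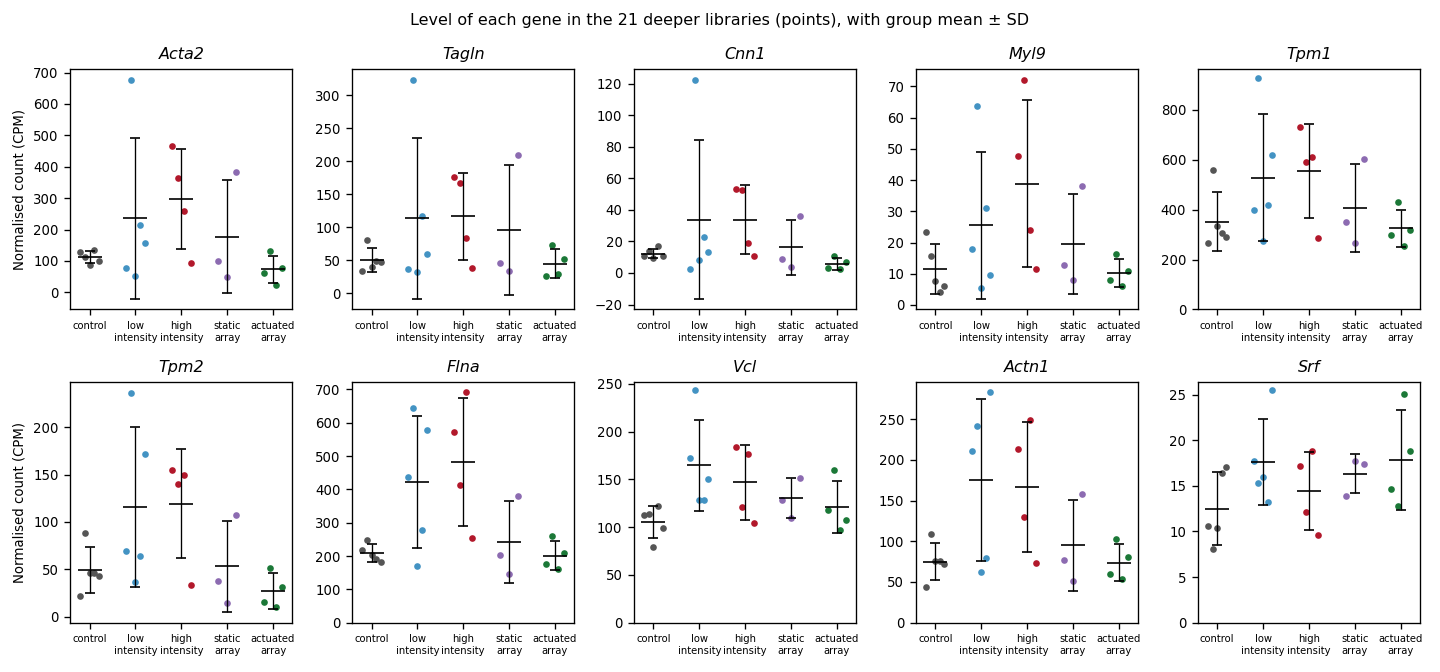
Normalised count (CPM, linear axis) of each gene in each of the 21 deeper libraries, by group, with the group mean and SD as bars. A single library stands far above its group for Acta2, Tagln and Cnn1 at low intensity (677, 323 and 122 CPM), and Srf stays between 8.06 and 25.5 CPM in all libraries.

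The first question is whether medium labelled high intensity went with other levels of these genes than the biochemical control. All 10 members had a higher fitted level at high intensity, with a median log2 fold change of 1.21 against a median of 0.00 over all 14730 genes fitted. None passed an adjusted p of 0.05 in edgeR's quasi-likelihood test with Benjamini-Hochberg adjustment, where 0.462% of all genes did. At an unadjusted p under 0.05 there were 8 members, all higher, beside 8.67% of all genes higher at that level. This number fell to 3 without high-intensity library 1 or 2 or control library 3. It was 5 with all 26 libraries and 2 with limma voom. Other tools differed in how many genes they called: DESeq2 called 1 member (3.17% of all genes), limma voom 0, limma on log2(TPM + 1) or log2(TPM + 0.1) 4 (15.8% and 15.6% of genes), and edgeR without the low-count filter 9 (1.88% of genes).

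Among the contractile genes, Acta2 measured 130.0, 111, 86.9, 133 and 101 CPM in control libraries 1, 2, 3, 5 and 6. At high intensity it measured 466, 365, 260.0 and 92.8 CPM in libraries 1, 2, 3 and 6. Of the 4 high-intensity libraries, 3 thus lay above every control, and library 6 lay inside the control range. The log2 fold change of Acta2 was 1.40 ± 0.60 (SE) and its adjusted p in edgeR was 0.244. Tagln, an actin-associated protein of differentiated smooth muscle, measured 33.6 to 81.0 CPM in controls and 38.6 to 176 CPM at high intensity, with a log2 fold change of 1.21 ± 0.59 (adjusted p = 0.313, edgeR).

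Cnn1, which binds actin and restrains its sliding over myosin, measured 9.23 to 16.8 CPM in controls. At high intensity its 4 values were 53.2, 52.3, 19.2 and 10.7 CPM, so that 3 were above all controls and library 6 was again within them. Its log2 fold change was 1.47 ± 0.76 (adjusted p = 0.353, edgeR). Myl9, the regulatory light chain of smooth muscle and nonmuscle myosin, had the largest fitted difference of the members, 1.73 ± 0.61 on the log2 scale (adjusted p = 0.154, edgeR). Its controls were themselves spread from 4.21 to 23.3 CPM, and the high-intensity values of 11.6 to 72.2 CPM overlapped them.

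The tropomyosins lie along the actin filament and govern the access of myosin and other binding proteins. Tpm1 had a log2 fold change of 0.66 ± 0.30 and Tpm2 one of 1.28 ± 0.56, with adjusted p-values of 0.280 and 0.257 in edgeR. Tpm2 measured 155, 140.3, 150 and 33.1 CPM at high intensity, against 22.1 to 88.7 CPM in controls. Libraries 1, 2 and 3 were therefore close together and above all controls, with library 6 below 4 of the 5.

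Among the linkers of actin filaments, Flna, the large cross-linker that ties filaments to membrane receptors, came nearest to the threshold. It measured 218, 249, 203, 190.0 and 181 CPM in controls and 573, 412, 694 and 253 CPM at high intensity. These ranges did not overlap, as was the case, with the higher values at high intensity, for 2.07% of all genes. Flna had a log2 fold change of 1.21 ± 0.31 (95% interval 0.58 to 1.85) with an adjusted p of 0.0652 in edgeR. It passed the threshold without high-intensity library 6 (adjusted p = 0.0209), without low-intensity library 3, which is outside the comparison and enters through the shared spread (0.0368), with DESeq2 (0.0387) and with only the groups compared (0.0347). Over all libraries left out in turn its adjusted p ran from 0.0209 to 0.259.

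Actn1, which bundles filaments and anchors them at adhesions, had a log2 fold change of 1.15 ± 0.40 (adjusted p = 0.147, edgeR). Vcl, which couples actin to integrin and cadherin adhesions, had one of 0.48 ± 0.20 (adjusted p = 0.230, edgeR). Srf itself measured 10.6, 8.06, 10.4, 16.4 and 17.1 CPM in controls and 17.2, 12.2, 18.8 and 9.64 CPM at high intensity. The 2 ranges overlapped widely, and the log2 fold change of 0.21 ± 0.28 had a 95% interval from -0.38 to 0.79 (adjusted p = 0.785, edgeR).

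Low intensity was compared with the same 5 control libraries, so the 2 sets of differences share their controls. All 10 members again had a higher fitted level, with a median log2 fold change of 1.09 against -0.01 over all genes. None passed the adjusted threshold in edgeR, where 0.597% of all genes did. At an unadjusted p under 0.05 there were 6 members, all higher, beside 8.57% of all genes. This number fell to 3 without low-intensity library 2 or control library 3, and with the replicate number as a block, where the median was 0.51. With all 26 libraries it was 6 as well. DESeq2 called 1 member, Vcl (3.2% of all genes), limma voom 0, limma on both TPM scales 7 (36.9% and 37.6% of genes), and edgeR without the low-count filter 9 (1.77%). Without low-intensity library 2 the median fell to 0.44, and 9 of 10 members were higher.

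Vcl gave the most even difference. It measured 172, 244, 128, 129 and 151 CPM in low-intensity libraries 1 to 5, and 113, 114, 79.2, 123 and 99.4 CPM in controls 1, 2, 3, 5 and 6. All low-intensity values were above all controls, a separation found with higher values for 1.28% of genes. The log2 fold change of Vcl was 0.65 ± 0.19 (95% interval 0.26 to 1.03), with an adjusted p of 0.0910 in edgeR and 0.0321 in DESeq2.

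Flna and Actn1 had their high values in libraries 1, 2 and 5 and lower ones in libraries 3 and 4. Flna measured 437, 645, 170.3, 279 and 579 CPM in low-intensity libraries 1 to 5, and its log2 fold change was 1.02 ± 0.29 (adjusted p = 0.0893, edgeR). Actn1 measured 211, 241, 62.7, 79.0 and 284 CPM, against 43.4, 109, 76.1, 75.3 and 72.2 CPM in controls. Its log2 fold change was 1.23 ± 0.38 (adjusted p = 0.112, edgeR). Both passed the threshold without low-intensity library 3, Flna with an adjusted p of 0.0231 and Actn1 with 0.0387.

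The contractile members depended on 1 library. Acta2 measured 76.9, 677, 52.1, 215 and 156 CPM at low intensity, so that libraries 1 and 3 were below every control (86.9 to 133 CPM) and the other three were above every one. Its log2 fold change of 1.06 ± 0.57 (adjusted p = 0.386, edgeR) became 0.14 without library 2. Cnn1 measured 2.49, 122, 8.17, 22.8 and 13.6 CPM, and its log2 fold change of 1.46 ± 0.73 (adjusted p = 0.344) turned to -0.13 without library 2.

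Tagln and Myl9 were also highest in low-intensity library 2, at 323 and 63.7 CPM. Their log2 fold changes were 1.17 ± 0.56 (adjusted p = 0.325, edgeR) and 1.12 ± 0.59 (adjusted p = 0.379). Without that library the value for Myl9 was 0.41. Tpm1 and Tpm2 had log2 fold changes of 0.59 ± 0.28 (adjusted p = 0.327) and 1.24 ± 0.54 (adjusted p = 0.263). Srf measured 13.3 to 25.5 CPM at low intensity, with a log2 fold change of 0.50 ± 0.27 (95% interval -0.05 to 1.05, adjusted p = 0.385).

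Set directly against each other, high and low intensity gave a median log2 difference of 0.04 over the members, with 7 higher and 3 lower at high intensity. No member reached even an unadjusted p under 0.05 in edgeR, where 7.68% of all genes did and 0% passed the adjusted threshold, and DESeq2, limma voom and limma on log2 TPM called 0 members. The intervals were wide for the contractile genes: for Acta2 the log2 difference was 0.33 with a 95% interval from -0.88 to 1.55, and for Cnn1 0.00 with one from -1.50 to 1.50. They were narrowest for Vcl (-0.17, interval -0.58 to 0.24) and Srf (-0.30, interval -0.88 to 0.29). Without low-intensity library 3 only 2 members were higher at high intensity. Without low-intensity library 2 there were 9, and 3 members had an unadjusted p under 0.05.

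**Figure D2:**
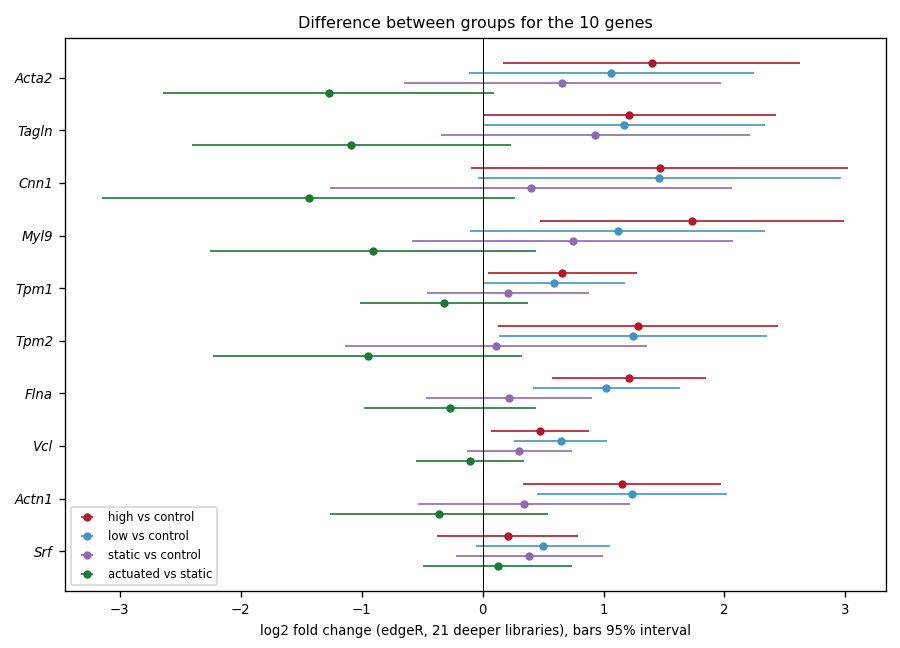
Log2 fold change of each gene (edgeR, 21 deeper libraries) in 4 comparisons, with bars for the 95% interval and a vertical line at 0. Points for high and low intensity against control lie above 0 for all 10 genes, with Flna at 1.21 and 1.02, while the actuated against static points lie below 0 for all but Srf (0.12).

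The mechanical question is whether moving the array went with other levels than leaving it still. Of the members, 9 had a lower fitted level on the actuated array and Srf a slightly higher one, with a median log2 fold change of -0.63 against 0.00 over all genes. None passed an unadjusted p under 0.05 in edgeR, where 0.38% of genes did and 0% passed the adjusted threshold. DESeq2, limma voom and limma on log2 TPM called 0 members, and edgeR without the low-count filter called 4 (0.107% of genes). Without static library 4 the members' median was 0.07 and 7 of 10 were higher. Without static library 2, 4 members had an unadjusted p under 0.05.

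Acta2 measured 62.1, 130.1, 24.3 and 76.5 CPM in actuated libraries 1 to 4, and 101, 49.6 and 382 CPM in static libraries 1, 2 and 4. The 2 groups overlapped, and static library 4 alone lay above all actuated ones. The log2 fold change of Acta2 was -1.27 ± 0.66 (95% interval -2.64 to 0.10, adjusted p = 1.00 in edgeR), and without static library 4 it was -0.03. Cnn1 measured 3.39, 10.9, 2.32 and 6.96 CPM when actuated and 8.82, 3.87 and 36.2 CPM when static, with a log2 fold change of -1.44 ± 0.83.

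In the other contractile genes and the tropomyosins static library 4 was again the highest of its group. Tagln had a log2 fold change of -1.08 ± 0.64, Myl9 one of -0.91 ± 0.65, Tpm1 one of -0.32 ± 0.34 and Tpm2 one of -0.95 ± 0.62, and these were 0.19, 0.00, 0.08 and 0.07 without static library 4. For the actin linkers the intervals were narrower than for the 4 contractile genes. Flna had a log2 fold change of -0.27 ± 0.35 (interval -0.98 to 0.45), Actn1 one of -0.36 ± 0.44 (interval -1.26 to 0.54) and Vcl one of -0.11 ± 0.22 (interval -0.56 to 0.34), and all 3 turned above 0 without static library 4.

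Srf measured 14.6, 12.8, 25.1 and 18.8 CPM in actuated libraries and 13.9, 17.7 and 17.4 CPM in static ones. Its log2 fold change was 0.12 ± 0.30 (interval -0.49 to 0.74), and it was -0.09 without actuated library 3. In that library Srf was the highest of its group while 8 of the other 9 members were the lowest of theirs.

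**Figure D3:**
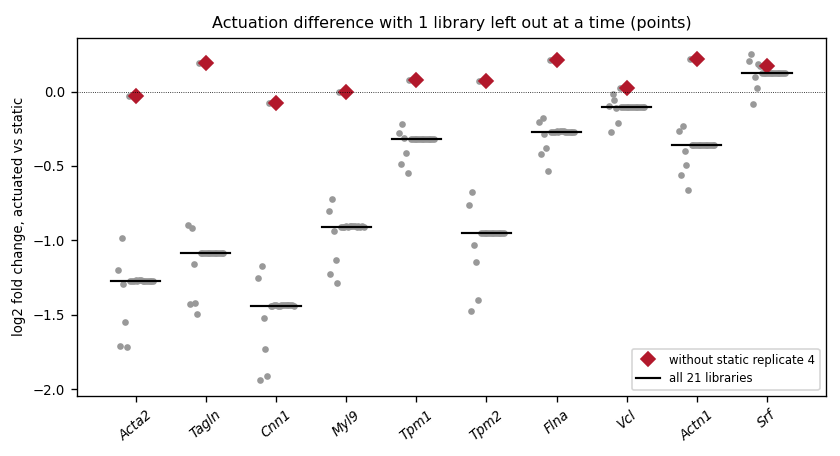
Log2 fold change of each gene between actuated and static arrays with all 21 deeper libraries (black lines), with each library left out in turn (grey points) and without static replicate 4 (red diamonds). The red diamonds lie near 0 for every gene, between -0.07 and 0.22, while the black lines for the 4 contractile genes lie between -1.44 and -0.91.

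Static arrays were also set against the biochemical controls, a comparison of culture formats in which depth differed as well, with totals of 7724923 to 13162635 counts against 2273487 to 3771637. Arm and depth cannot be told apart by the labels, and with all libraries thinned to 1551334 counts the members' median was 0.42. In edgeR the median log2 fold change was 0.36, with 10 of 10 members higher, against 0.00 over all genes. None reached an unadjusted p under 0.05, where 12.6% of all genes did and 0.713% passed the adjusted threshold. DESeq2, limma voom and limma on log2 TPM called 0 members and edgeR without the low-count filter 2 (1.23% of genes). Acta2 had a log2 fold change of 0.66 ± 0.64 and Tagln one of 0.93 ± 0.62, the largest of the 10, and Vcl one of 0.30 ± 0.21. Without static library 4 the median was -0.24, with 8 of 10 members lower, Acta2 at -0.56 and Tagln at -0.33. The 2 remaining static libraries measured 101 and 49.6 CPM for Acta2, inside and below the control range of 86.9 to 133 CPM.

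The actuation difference was then tested against the high-intensity difference in 1 model. The interaction, actuated minus static less high intensity minus control, was below 0 for 10 of 10 members, with a median of -1.87 on the log2 scale against -0.01 over all genes. None passed the adjusted threshold in edgeR, as was the case for 0% of all genes, while 8 members had an unadjusted p under 0.05, all lower, beside 3.73% of genes. Without static library 4 that number was 1, as it was with limma voom, and with all 26 libraries it was 6. DESeq2, limma voom and limma on log2 TPM called 0 members, and edgeR without the low-count filter called 8 (0.66% of genes). The value was -2.67 ± 0.89 for Acta2 (adjusted p = 0.663, edgeR), -1.48 ± 0.46 for Flna (adjusted p = 0.645) and -0.08 ± 0.41 for Srf (adjusted p = 0.984). Without static library 4 the median was -1.02 on the log2 scale. The 2 effects come from separate libraries, but the arms differ in culture format and depth, so a difference between the arms and one between the treatments cannot be told apart.

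The spread inside groups had a common shape. In static library 4 and actuated library 2, 9 members, all but Srf, were the highest of their group. Low-intensity library 2 was highest for 8 members and library 3 lowest for 8. High-intensity library 6 was lowest for all 10. In the controls no library led for more than 5 members. Acta2 spread from 86.9 to 133 CPM there, a ratio of 1.53, against ratios of 5.02 at high intensity, 13.0 at low intensity, 7.71 on static and 5.36 on actuated arrays. The controls were the least spread group, by the ratio of highest to lowest CPM, for 5 members (Acta2, Tagln, Cnn1, Tpm2 and Flna). Actuated arrays were the least spread for 3 members and static arrays for 2. Myl9 had a ratio of 5.53 in controls, against 2.69 on actuated and 4.68 on static arrays. The difference in spread between groups was not tested.

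**Figure D4:**
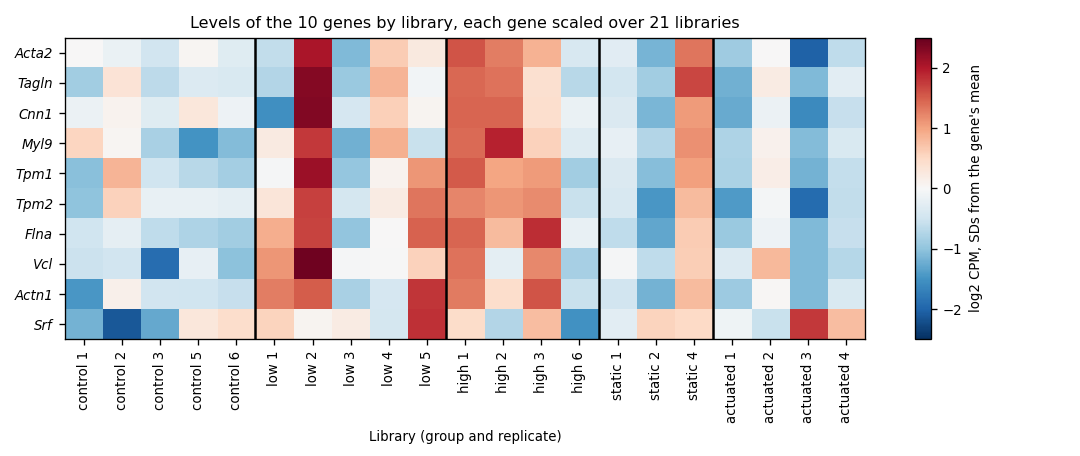
Log2 CPM of each gene (rows) in each of the 21 deeper libraries (columns, by group and replicate), as SDs from that gene's mean over all libraries. Low 2 is the darkest red column over the 9 genes other than Srf (median 2.03 SDs), with high 1, 2 and 3 and static 4 also red, and static 2 (-1.14 SDs), actuated 3 (-1.10 SDs) and low 3 (-0.93 SDs) are the bluest, while the Srf row follows another order.

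Across the 21 deeper libraries, the 36 pairs among the 9 members other than Srf had correlations of log2 CPM from 0.54 to 0.95, with a median of 0.79. After the group means were removed the median was 0.74. The closest pairs were Flna with Actn1 (0.95), Acta2 with Cnn1 (0.94) and Tpm1 with Tpm2 (0.93), and the least close was Cnn1 with Actn1 (0.54). Srf stood apart, with correlations from -0.19 (with Myl9) to 0.29 (with Actn1) and a median of 0.01. These values are descriptive: each point is 1 library, and genes of a library share its depth, its scaling and its mix of cells. The messenger level of Srf says nothing of the amount or the nuclear activity of its protein.

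Among 13202 protein-coding genes fitted other than the members, the genes most like Acta2 across the 21 libraries were Myh11 (r = 0.93), the heavy chain of smooth muscle myosin, Loxl2 (0.92), a collagen cross-linking enzyme, Actg2 (0.92), the enteric smooth muscle actin, Col4a1 (0.91), a basement membrane collagen, and Col1a1 (0.91), a fibrillar collagen. Actg2 and Acta2 are near-identical in coding sequence, and since it is not stated how reads were divided between them their likeness is uncertain. The genes most like Srf were Ube2l3 (r = 0.80), a ubiquitin-conjugating enzyme, Ctbp2 (0.80), a transcriptional corepressor, Phldb1 (0.77), Cse1l (0.77), a nuclear export factor, and Ndufb5 (0.76), a subunit of respiratory complex I. The members Cnn1 (r = 0.94) and Tagln (0.92) also ranked above the fifth of the genes named for Acta2. No gene was on both lists of 5.

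Other genes of the pathway were taken from 3 lists, which were also fixed with earlier results of these data known. Of 19 regulators of SRF, all fitted, 0 passed the adjusted threshold in any comparison in edgeR. At an unadjusted p under 0.05, 7 were higher and 1 lower at high intensity against control, with a list median of 0.18 on the log2 scale, and 6 were higher and 1 lower at low intensity, with a median of 0.14. Over all genes 8.67% were higher and 7.28% lower at that level at high intensity, and 8.57% and 6.61% at low intensity. DESeq2 called 5 of the regulators in at least 1 comparison between groups, beside 7.34% of all genes. The cofactor Mrtfa averaged 40.3 ± 15.0 CPM in controls (SD, n = 5), 42.4 ± 9.82 CPM at high intensity (n = 4) and 35.1 ± 4.39 CPM at low intensity (n = 5). Its log2 fold changes were 0.07 ± 0.23 and -0.19 ± 0.22. Mrtfb had 0.08 ± 0.20 and 0.07 ± 0.19, and Elk1, a ternary complex factor, -0.31 ± 0.38 and -0.49 ± 0.37. Myocd, the cofactor of the heart and smooth muscle lineages, was scarce, at 1.84 ± 1.74 CPM in controls and 3.06 ± 3.04 CPM at high intensity, close to the level that a count of 0 allows.

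Of 33 further genes described as SRF targets, 32 were fitted. At high intensity 1 passed the adjusted threshold, at low intensity 2, all higher, and in the other comparisons 0. Over all genes 0.462% passed at high intensity, 0.597% at low intensity and 0.713% on static arrays against controls. The list medians were 0.82 and 0.73 on the log2 scale at high and low intensity, against 0.00 and -0.01 over all genes. In each, 29 of 32 were above 0, beside 50.3% and 49.1% of all genes. On static arrays against controls 29 of 32 were above 0 as well, with a median of 0.27, beside 49.7% of all genes. At an unadjusted p under 0.05, 17 were higher and 1 lower at high intensity, 16 higher and 0 lower at low intensity, and 9 higher and 0 lower on static arrays, where 6.1% of all genes were higher at that level. Smtn encodes smoothelin, a smooth muscle actin-binding protein. It measured 3.50 to 9.36 CPM in controls and 16.3 to 39.9 CPM at high intensity. The ranges of Smtn did not overlap, as was the case, with higher values at high intensity, for 2.07% of all genes. Its log2 fold change was 2.28 ± 0.45 (adjusted p = 0.0357, edgeR), and at low intensity, with 9.20 to 60.3 CPM, it was 2.11 ± 0.44 (adjusted p = 0.0305). Flnc, the muscle filamin, rose at low intensity by 1.07 ± 0.24 on the log2 scale (adjusted p = 0.0420, edgeR), from 84.2 ± 16.0 CPM (SD, n = 5) to 177 ± 74.2 CPM (n = 5).

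These calls were not stable. With all 26 libraries the adjusted p of Smtn was 0.161 at high and 0.164 at low intensity and that of Flnc was 0.522, and with limma voom Smtn had 0.338 and 0.331. The call for Smtn at high intensity was lost without actuated library 1, static library 1 or 2, high-intensity library 1, 2 or 3, or control library 2, 3 or 5. At low intensity it was lost without low-intensity library 1, 2 or 5 or control library 1 or 2, and without low-intensity library 2 the log2 fold change was 1.51. The call for Flnc was lost without 12 of the 21 libraries, namely actuated 1 and 4, static 1 and 2, high 1, low 1, 2 and 5, and control 1, 2, 3 and 5, where its adjusted p reached 0.123.

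Among the first genes of that list, Myh9, the nonmuscle myosin heavy chain, had log2 fold changes of 1.33 ± 0.42 at high intensity (adjusted p = 0.116, edgeR) and 1.54 ± 0.40 at low intensity (adjusted p = 0.0612). Zyx, an adhesion protein, had 0.54 ± 0.24 and 0.54 ± 0.23, Ccn1, a secreted matricellular protein, 0.80 ± 0.53 and 0.72 ± 0.51, and Fhl2, a LIM-domain cofactor, 0.48 ± 0.32 and 0.67 ± 0.30. Between actuated and static arrays the same 4 genes had values from -0.13 (Fhl2) to 0.12 (Ccn1), and the list median was -0.07 with 14 of 32 above 0.

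Of 14 nonmuscle and neuronal relatives of the members, all fitted, 1 passed the adjusted threshold. It did so on static arrays against controls, where 0.713% of all genes passed. This was Cnn3, the neuronal and nonmuscle calponin, which rose by 0.53 ± 0.12 on the log2 scale (adjusted p = 0.0374, edgeR). It measured 364 to 395 CPM on static arrays and 196 to 311 CPM in controls. The call was lost with all 26 libraries (1.00) and without actuated library 1 or 4, static library 1, 2 or 4, or control library 1, 2 or 3. Actb, the main cytoplasmic actin, had log2 fold changes of 0.31 ± 0.12 at high and 0.46 ± 0.11 at low intensity (adjusted p = 0.198 and 0.0580, edgeR), and Actg1 had -0.06 ± 0.09 and 0.19 ± 0.08. Tagln2 had 0.27 ± 0.18 and 0.53 ± 0.17, and the neuronal Tagln3 had -0.36 ± 0.19 and -0.21 ± 0.18. The list medians were 0.18 at high intensity and 0.35 at low intensity, where 0 passed the adjusted threshold. At an unadjusted p under 0.05 there were 4 and 9, all higher, beside 8.67% and 8.57% of all genes higher.

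Markers of cell types were measured in the same libraries. All 8 neuron markers had counts in every deeper library, as did 6 of 8 motor neuron markers (Mnx1, Isl1, Chat, Slc18a3, Slc5a7 and Prph), while Isl2 was at 0 in 8 libraries and Lhx3 in 1. Of 8 smooth muscle markers that are no members, 6 of which are also on the list of SRF targets, Myh11, Smtn, Des, Actg2, Synpo2 and Cald1 had counts in all 21. Skeletal muscle markers were low and uneven: their 10 genes summed to 1.54 to 24.0 CPM per library, and none had counts in all 21. Myog, Ckm and Tnnc2 were at 0 in 18 libraries, Myf5 in 16 and Myod1 in 12, whereas Actn2 was at 0 in 1 library and Myh8, which reached 18.3 CPM, in 3. Fewer cells of a type and less RNA per cell cannot be told apart in these libraries.

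The summed level of the 8 smooth muscle markers was 325 to 597 CPM in controls, 310.2 to 1473 CPM at high intensity and 328 to 2066 CPM at low intensity. It was 215 to 865 CPM on static and 168 to 490 CPM on actuated arrays. The extremes fell in libraries named above: low-intensity library 2 had 2066 CPM, static library 4 had 865 CPM, high-intensity library 6 had 310.2 CPM and actuated library 3 had 168 CPM. Of these 8 markers, 8 were above 0 at high intensity against control (median log2 fold change 1.35) and 8 at low intensity (1.11), with 1 called in each (Smtn), and 2 of 8 were above 0 between actuated and static arrays (median -0.81). The summed 10 fibroblast markers were 443 to 1036 CPM in controls, 1031 to 2584 CPM at high intensity and 336 to 2698 CPM at low intensity. Of these 10 markers, 10 were above 0 at high intensity (median log2 fold change 1.00) and 10 at low intensity (0.54), with 0 called. Between actuated and static arrays 5 of the 10 were above 0 (median 0.14). The summed 8 pericyte markers, which include Pdgfrb and Notch3, were 73.6 to 113 CPM in controls, 89.8 to 134 CPM at high intensity and 77.0 to 108 CPM at low intensity. Of the 7 fitted, 6 were above 0 at high intensity (median log2 fold change 0.45) and 5 at low intensity (0.07). Between actuated and static arrays 5 of these 7 were above 0 (median 0.32). The summed 8 neuron markers were 7765 to 8683 CPM in controls and 5399 to 7818 CPM at high intensity, where 0 of the 8 genes had a fold change above 0 on the log2 scale. The neuron sum was 6379 to 9018 CPM at low intensity, 8220 to 10562 CPM on static and 9046 to 10764 CPM on actuated arrays. Of these 8 genes, 1 was above 0 at low intensity and 5 between actuated and static arrays (median 0.04). Of 7 fitted motor neuron markers, 0 were above 0 at high intensity and 1 at low intensity. Between actuated and static arrays the number was 7 (median 0.45). Of 8 glia and progenitor markers the numbers were 4, 7 and 3 in the same order. The part of cell composition in the differences of the members was not tested.

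Acta2 and Srf were related to 3 of these sums over the 21 libraries, 6 relations in all. The sums weigh each gene by its abundance and do not show that all markers moved together. In controls the largest means were those of Cald1 in the smooth muscle sum (258 CPM) and Nefl in the neuron sum (4673 CPM). The smooth muscle sum also holds Actg2, whose reads may be shared with Acta2. Acta2 correlated with the smooth muscle sum (Pearson's r = 0.926, permutation p = 1e-05, the smallest that 100000 permutations can give, adjusted p = 3e-05; Spearman's rho = 0.884, permutation p = 1e-05, adjusted 3e-05). Without the 2 libraries farthest from the median, low 2 and high 1, r was 0.882. It was 0.986 within the 7 array libraries and 0.892 within the 14 biochemical ones. Acta2 correlated also with the fibroblast sum (r = 0.886, rho = 0.825, permutation p = 1e-05 and adjusted p = 3e-05 for both; 0.839 without low 2 and high 2; 0.860 and 0.893 within the arms). With the neuron sum it was inverse (r = -0.644, permutation p = 0.00149, adjusted 0.00298; rho = -0.631, permutation p = 0.00300, adjusted 0.00600), at -0.573 without high 3 and actuated 3, -0.917 within the array libraries and -0.477 within the biochemical ones. After the group means were removed, r was 0.92, 0.894 and -0.483 with the 3 sums in this order. The permutations mixed libraries of all groups, so these p-values also take in differences between groups.

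For Srf no relation to the 3 sums was detected. Its r was 0.02 with the smooth muscle sum (permutation p = 0.926, adjusted 0.952; rho = 0.01, permutation p = 0.953, adjusted 0.961), and -0.04 without low 2 and high 1. The arms differed in sign, at -0.511 within the array libraries and 0.357 within the biochemical ones. With the fibroblast sum r was -0.224 (permutation p = 0.331, adjusted 0.497; rho = -0.209, permutation p = 0.361, adjusted 0.542), -0.203 without low 2 and high 2, -0.586 within the array libraries and -0.003 within the biochemical ones. With the neuron sum r was -0.01 (permutation p = 0.952, adjusted 0.952; rho = 0.01, permutation p = 0.961, adjusted 0.961), -0.09 without high 3 and actuated 3, 0.316 within the array libraries and -0.438 within the biochemical ones. After the group means were removed, r was 0.03, -0.253 and -0.274 with the 3 sums in this order.

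**Figure D5:**
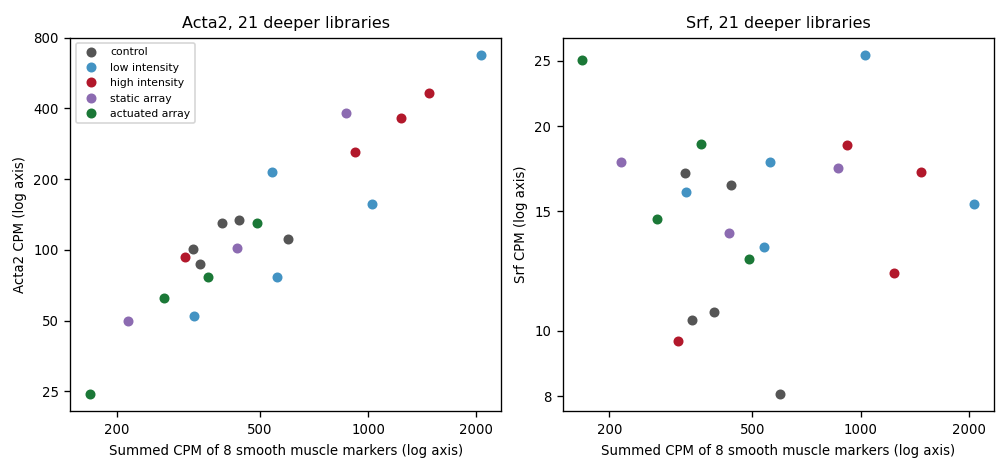
CPM of Acta2 (left) and Srf (right) against the summed CPM of 8 smooth muscle markers in the 21 deeper libraries, on log axes, coloured by group. Acta2 rises with the markers over the 21 libraries (r = 0.926), from actuated 3 at the lower left to low 2 at 2066 CPM on the right, although among the controls the library with the highest marker sum, 597 CPM, is not the highest in Acta2, and no such relation is seen for Srf (r = 0.02).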

How the data were processed

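Tables deposited by the authors were used, both with 56941 genes and 26 libraries: 1 holds expected counts (estimated counts per gene) as whole numbers, not scaled for depth, and the other TPM values, which the authors scaled to 1000000 per library. Per the labels' protocols, libraries were made from 4 ng of total RNA, or from the full volume for the 8 least concentrated samples, whose identities are not given there. The submitters' processing notes name STAR, Salmon, BWA 0.7.12-r1039, bedtools 2.25.0 and the builds mm10, GRCm39 and hg19, without roles; the build behind the tables is not stated. Strand use and the division of reads between near-identical copies are likewise not given.

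Counts were rounded and fitted with edgeR 4.0.16 (R 4.3.3): filterByExpr (14730 genes), TMM scaling, 1 coefficient per group over the 21 deeper libraries, quasi-likelihood F-test, and Benjamini-Hochberg adjustment over all genes per comparison, with a threshold of 0.05. Relations between levels used log2(CPM + 0.5). Alternatives were all 26 libraries, DESeq2 1.42.0 (its test, and its size factors inside edgeR), limma 3.58.1 (on log2(TPM + 1), on log2(TPM + 0.1), and voom with weights for library quality), no filter or at least 5 CPM in 3 libraries, only the groups compared, a replicate block, thinning to 1551334 counts, a threshold of 0.1, and each library left out in turn. Intervals cover no more than the spread modelled from these libraries, and limits from counts of 0 cover counting error only.

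The members, gene lists and depth minimum were chosen with earlier results of these data known. The directions of members and lists are therefore not independent evidence. Genes named are all 10 members, the first 4 of each of 3 pathway lists, list genes that passed the threshold, and the 5 genes most correlated with Acta2 and with Srf. All 325 pairs of libraries differed by more than sampling noise (chi-square per gene 4.73 to 647), so none was counted as a repeat. The fits were checked on simulated counts.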

Additional observations from a re-analysis of the deposited data

Results flagged for a closer look

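Dixon's criterion at the 95% level was applied to linear CPM in 40 sets of 4 or 5 libraries. These were the 10 genes in the 4 groups of that size. In 5 of the sets a library lay far from the others. Chance gives about 1 in 20 for normally distributed values. The criterion was not applied to log2 CPM, so whether these flags hold on that scale was not tested. In low-intensity library 2, Acta2 measured 677 CPM where the next library had 215 CPM, Tagln 323 CPM where the next had 116 CPM, and Cnn1 122 CPM where the next had 22.8 CPM. These 3 flags come from 1 library and from genes that vary together, so they are not separate observations. In control library 2, Tpm1 measured 560.0 CPM, and the next control had 333 CPM. In high-intensity library 6, Tpm2 measured 33.1 CPM, with the next library at 140.3 CPM. Static library 4 could not be tested, because that group held 3 deeper libraries.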

How the results depend on the processing

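Of 660 log2 fold changes of members refitted under the settings other than leaving out a library and the changed threshold, 29 changed sign, and none of the values that changed sign had passed a threshold. The direction at high intensity held for 10 of 10 members under all settings except limma voom, where Srf had -0.057. Numbers of members called were 4, 9, 9, 2 and 8 without the low-count filter (actuated against static, high and low intensity against control, static against control, interaction), 1 and 1 with DESeq2 (high and low intensity against control), 4 and 7 with limma on log2(TPM + 1) and on log2(TPM + 0.1), 1 at high intensity with only the groups compared, and 1 and 2 at a threshold of 0.1. The cause of these differences between settings was not tested. Over all genes 0.493% were called in at least 1 comparison between groups with only the groups compared, and 5.01% at the 0.1 threshold. On the TPM scale the median of all genes was itself shifted by 0.53 and 0.64 at high intensity, by 0.64 and 0.75 at low intensity and by 0.50 and 0.62 on static arrays (pseudocounts 1 and 0.1), and relative to it the members' median was 1.03 and 0.97, 0.58 and 0.48, and 0.15 and 0.10. Leaving out 1 library gave 0 to 1 members at high intensity (1 without high 6 or low 3) and 0 to 2 at low intensity (2 without low 3). For these refits the share over all genes is not given.

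Over all comparisons between groups, the numbers of regulators, targets and relatives called, 0, 2 and 1 in the main analysis, were 5, 19 and 6 without the filter, 5, 8 and 4 with DESeq2, 11, 23 and 11 on log2(TPM + 1), 11, 22 and 11 on log2(TPM + 0.1), and 4, 7 and 5 at the threshold of 0.1. Over all genes fitted 1.52% were called in at least 1 of these comparisons in the main analysis, against 3.35%, 7.34%, 40.5%, 40.4% and 5.01% in that order. With all 26 libraries and with the replicate block, 0 targets and 0 relatives were called, with limma voom 0 targets, with only the groups compared 1 target and 0 relatives, and with thinning 2 relatives. Over all genes the shares were 0.0738% with all 26 libraries, 0.285% with the block and 1.03% with limma voom. They were 0.493% with only the groups compared and 1.37% with thinning. Leaving out 1 library gave 0 to 4, 0 to 6 and 0 to 5, and the share over all genes is not given for those refits.

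Other signs that reversed from the main analysis, in any comparison, were as follows, with those under the replicate block given further below. With all 26 libraries, actuated against static gave 0.11 for Vcl, high against low -0.19 for Tagln, -0.25 for Cnn1 and 0.29 for Actn1, static against control -0.11 for Tpm2, and the interaction 0.027 for Srf. With limma voom, high against low gave -0.017 for Tagln, -0.014 for Tpm1 and -0.084 for Tpm2, static against control -0.15 for Acta2, -0.59 for Cnn1 and -0.36 for Tpm2, and the interaction 0.10 for Srf. On log2(TPM + 1) and log2(TPM + 0.1), Vcl had 0.083 and 0.084 between actuated and static, and Tpm1 -0.14 and -0.14 between high and low. Thinning gave -0.15 for Srf (actuated against static), -0.050 for Cnn1 (high against low) and -0.0080 for Tpm2 (static against control).

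Replicate numbers pair no libraries by the labels. Deviations of 31 same-numbered pairs had correlations from -0.23 to 0.19, with a median of -0.003 against 0.004 for other pairs. Of 21 libraries, 7 correlated best with one of their own number, and the number that chance would give was not computed. With the replicate block 0 members were called, Actn1 had 0.24 between high and low, and static against control gave -0.43 for Acta2, -0.080 for Tagln, -0.70 for Cnn1, -0.37 for Myl9, -0.062 for Tpm1, -0.38 for Tpm2 and -0.044 for Flna. The block took the adjusted p of Smtn to 0.0734 (high) and 0.138 (low), of Flnc to 0.164 and of Cnn3 to 0.0808.

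With 1 library left out at a time, actuated against static ranged from -1.49 to 0.19 for Tagln, -0.55 to 0.079 for Tpm1, -1.47 to 0.071 for Tpm2, -0.53 to 0.21 for Flna, -0.27 to 0.021 for Vcl and -0.66 to 0.22 for Actn1, in each case above 0 without static 4, and from -0.087 (without actuated 3) to 0.25 for Srf. For low intensity against control, Cnn1 ranged from -0.13 (without low 2) to 1.77. High against low ranged from -0.24 to 0.96 for Tagln, -0.32 to 1.60 for Cnn1, -0.094 to 0.37 for Tpm1, -0.18 to 0.48 for Tpm2, -0.034 to 0.41 for Flna, -0.30 to 0.016 for Vcl and -0.34 to 0.17 for Actn1. Static against control ranged from -0.56 to 1.12 for Acta2, -0.33 to 1.35 for Tagln, -0.95 to 0.89 for Cnn1, -0.15 to 1.19 for Myl9, -0.18 to 0.45 for Tpm1, -0.90 to 0.57 for Tpm2, -0.25 to 0.50 for Flna and -0.22 to 0.66 for Actn1, with each lowest value without static 4. The interaction of Srf ranged from -0.29 to 0.063. In the biochemical arm the members with the fewest counts were Cnn1 (9 to 327 per deeper library), Myl9 (9 to 189) and Srf (21 to 75).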

Other observations

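The 5 libraries outside the main analysis gave few counts for these genes. High-intensity library 4, with 243510 counts in all, held 393 counts of Tpm1, 165 of Actn1, 157 of Flna, 146 of Tpm2 and 39 of Myl9, but 0 of Tagln, Cnn1, Vcl and Srf, where a count of 0 allows up to 12.3 CPM. Control library 4, with 1457250 counts, of which 272212 were on protein-coding genes, held 17 counts of Acta2 and 1 of Srf. Low-intensity library 6 held 0 counts of all 10 genes among 1536 counts.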
